A study of Homo sapiens with 6 samples.

Results

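The enzymes that write and erase methylation of lysine 4 of histone H3 (H3K4) were examined as a group of genes. The group held 10 genes of the 20163 protein coding genes in GENCODE on GRCh37, chosen by name: the SET domain methyltransferases KMT2A, KMT2B, KMT2C, KMT2D, SETD1A and SETD1B, the shared subunits WDR5 and ASH2L, and the demethylases KDM5A and KDM5B. For each gene, HA peaks and H3K4me3 regions were taken within 1 kb of the transcription start site (TSS), the 5′ end of the gene. No measured value set which genes were taken, but earlier results of these data were known when the group was chosen.

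Methylation of H3K4 in mammals is deposited by a family of large complexes, each built around a SET domain enzyme. WDR5 and ASH2L, together with RBBP5 and DPY30, form the core that these complexes share and that the catalytic subunits need for full activity. SETD1A and SETD1B carry out much of the trimethylation at active promoters, KMT2A and KMT2B act at developmental and CpG-rich promoters, and KMT2C and KMT2D monomethylate H3K4 at enhancers. KDM5A and KDM5B remove methyl groups from trimethylated H3K4. MMP-2, a metalloproteinase best known for its work outside cells, also cuts the N-terminal tail of histone H3, the tail that carries H3K4.

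The cells were U2OS, a human osteosarcoma line, all grown to 2 days past confluence with no other treatment. In the line named ProMMP2-3xHA, a stable transgene supplies HA-tagged pro-MMP-2 in addition to the MMP-2 that U2OS cells make themselves, and wild type (WT) cells are U2OS without the tagged protein. Native ChIP-Seq, in which chromatin is cut to nucleosomes with micrococcal nuclease and precipitated without crosslinking, was performed with an HA antibody (3 replicates) and an H3K4me3 antibody (1 library) in ProMMP2-3xHA cells, and with the same antibodies (1 library each) in WT cells. Peak lists were used of 5 of the 6 samples, with 1 list of the merged HA replicates, and no list of the HA sample of WT cells was used. By their names, the lists of the HA replicates were called against an HA control precipitation, and the design text gives HA in WT cells as the negative control. All fold enrichments, q-values and fragment numbers below are therefore relative to that control, and whether the 3 replicates share 1 control library is not given in the sources used here. A list holds regions that passed the peak caller at q 0.05, so a weaker signal and fewer cells that carry it cannot be told apart. The median number of fragments under an HA summit was 49, 44 and 41 in replicates 1, 2 and 3. For H3K4me3 the fragment numbers are unknown, and the paper gives only a lower bound of reads that holds for every library. Of 7 osteoblast and mesenchyme markers, 4 (SPARC, RUNX2, VIM and COL1A1) carried H3K4me3 in both lines, whereas ALPL, TWIST1 and COL1A2 did not. None of the 3 blood markers or the liver marker carried it, but EPCAM and KRT8 of 3 epithelial markers and SNAP25 of 2 neuronal markers did.

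Stretches of the GRCh37 reference are shown for 5 genes that differ in where HA was found. It lay at the TSS itself (KMT2D), upstream beside a neighbouring gene (SETD1B) or at a promoter shared with a neighbour (KDM5A). At WDR5 it lay weakly just past the gene start, upstream of the canonical transcript, and none lay near KMT2A. The 4 stretches with HA are centred on the mean position, over replicates, of the highest summit within 1 kb, and that of KMT2A on its TSS. All are written along the gene, 5′ to 3′, with matches to the motifs named below, on either strand, in capitals.
KMT2D, chr12:49454447-49454647, minus strand, 70 bp upstream to 130 bp downstream of the TSS: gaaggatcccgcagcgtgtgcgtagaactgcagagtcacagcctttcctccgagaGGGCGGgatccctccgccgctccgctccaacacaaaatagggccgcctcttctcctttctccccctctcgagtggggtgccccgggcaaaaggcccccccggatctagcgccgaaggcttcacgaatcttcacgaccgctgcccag
SETD1B, chr12:122240944-122241144, plus strand, 971 to 771 bp upstream of the TSS: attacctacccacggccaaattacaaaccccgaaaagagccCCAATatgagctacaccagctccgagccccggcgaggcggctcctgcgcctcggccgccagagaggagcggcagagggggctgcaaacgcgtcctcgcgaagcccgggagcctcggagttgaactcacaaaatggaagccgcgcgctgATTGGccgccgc
KDM5A, chr12:498394-498594, minus strand, 108 bp upstream to 92 bp downstream of the TSS: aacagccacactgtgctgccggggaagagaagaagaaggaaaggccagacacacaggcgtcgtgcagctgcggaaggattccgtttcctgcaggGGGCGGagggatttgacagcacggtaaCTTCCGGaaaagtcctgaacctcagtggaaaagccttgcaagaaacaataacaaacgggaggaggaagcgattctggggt
WDR5, chr9:137000509-137000709, plus strand, 22 to 222 bp downstream of the TSS: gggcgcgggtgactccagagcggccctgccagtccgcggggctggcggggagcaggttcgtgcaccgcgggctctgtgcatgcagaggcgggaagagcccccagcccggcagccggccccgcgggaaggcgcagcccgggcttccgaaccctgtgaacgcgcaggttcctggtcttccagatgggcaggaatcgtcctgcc
KMT2A, chr11:118307071-118307271, plus strand, 100 bp either side of the TSS: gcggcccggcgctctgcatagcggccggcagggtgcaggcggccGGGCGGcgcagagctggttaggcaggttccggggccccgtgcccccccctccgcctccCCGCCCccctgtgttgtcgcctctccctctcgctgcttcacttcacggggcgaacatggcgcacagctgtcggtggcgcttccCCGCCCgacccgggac

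These 201-base stretches were rich in G and C, from 54.7% in KDM5A to 75.6% in KMT2A, with 10 CpG dinucleotides in KDM5A and 23 in KMT2A. KMT2A, where no HA peak lay, held 3 matches to the GC box GGGCGG, and KMT2D and KDM5A held 1 each. In the SETD1B stretch there were 2 matches to the CCAAT box, and KDM5A held 1 match to the ETS motif CCGGAAG. WDR5 matched none of the 6 motifs searched. Over 1 kb around the TSS (500 bp either side), GC content ran from 58.3% at KDM5A to 79.6% at KMT2B, and 9 of the 10 genes were above the median of 59.2% of all genes. Genes with H3K4me3 in both lines had a median of 62.4%. Within 300 bp around the TSS (150 bp either side), GGGCGG was found in 8 of the 10 genes and in 54.0% of all genes, and neither CCAAT (33.6% of all genes) nor TATAAA (9.22%) was found in any of the 10. CCGGAAG was found at KDM5A (12.1% of all genes), AAGATGG, which YY1 binds, at KMT2B (6.27%), and the E-box CACGTG at KMT2D (7.77%). A match describes letters and is not a measured binding site.

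To determine which of these genes carried MMP-2 at the promoter, the merged HA list was examined first. A merged HA peak lay within 1 kb of the TSS at 6 of the 10 genes, compared to 28.2% of all protein coding genes and 49.0% of the 11446 genes with H3K4me3 in both lines. The 6 were the methyltransferases KMT2B, KMT2D and SETD1B, both core subunits, and the demethylase KDM5A. KMT2A, KMT2C, SETD1A and KDM5B had none. Only 3 of the 10 genes, KMT2D, SETD1B and ASH2L, had a peak in every replicate, where the share was 16.1% of all genes and 28.0% of those with H3K4me3 in both lines. By replicate, 4 genes had a peak in replicate 1 (20.3% of all genes), 5 in replicate 2 (28.0%) and 5 in replicate 3 (28.6%). With 10 genes, no test was made against these shares. A further rule, chosen after seeing the data, kept only peaks for which the gene had the nearest protein coding TSS. It left 4 genes with a merged peak and 2 with a peak in every replicate. The shares of all genes under that rule are not given here.

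**Figure D1:**
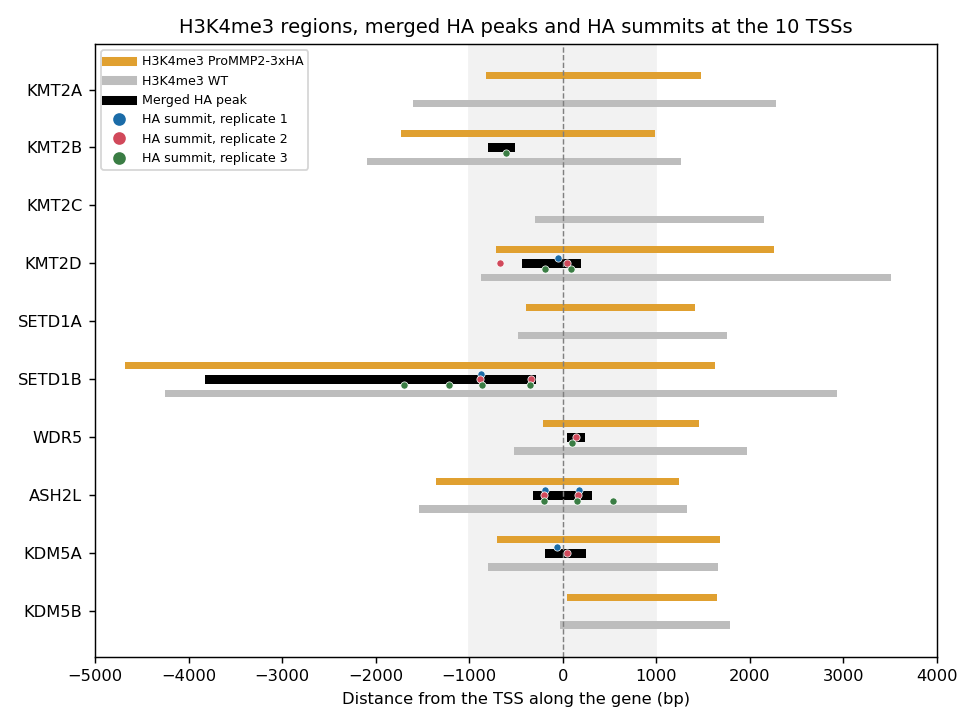
Extent of the H3K4me3 regions (ProMMP2-3xHA, orange; WT, grey), merged HA peaks (black) and HA summits of each replicate (points) along each gene, in bp from its TSS at 0, with the 1 kb window shaded. The summits of ASH2L form 2 clusters either side of the TSS, those of SETD1B all lie upstream, and KMT2A, KMT2C, SETD1A and KDM5B have no HA peak in the window.

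Among the genes with HA in every replicate, ASH2L had the highest enrichment. ASH2L encodes a core subunit that joins with RBBP5 to activate the SET domain enzymes. The fold enrichment at its highest summit, which is the HA pileup over the local control background as the peak caller gives it, was 7.81, 9.85 and 8.89 in replicates 1, 2 and 3, averaging 8.85 ± 1.02 (SD, n = 3). This mean was above those of 90.4% of the 3255 genes with a peak in every replicate, whose median was 5.81. All 3 values lay above the replicate medians over all genes with a peak, which were 4.95, 5.57 and 4.99.

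HA at ASH2L came in a pair of summits that stood at nearly the same bases in every replicate. The upstream summit lay 191, 195 and 195 bp before the TSS (chr8:37963011, plus strand), with a fold enrichment of 5.97, 8.78 and 5.95 (mean 6.90 ± 1.63, SD, n = 3). The downstream summit lay 173, 169 and 150 bp after the TSS and was the higher one in each replicate, resting on 80, 87 and 77 fragments (95% exact Poisson intervals 63.4 to 99.6, 69.7 to 107 and 60.8 to 96.2, for counting error only). The spacing between them was 364, 364 and 345 bp. On the log2 scale the downstream summit exceeded the upstream one by 0.389, 0.165 and 0.580, a mean of 0.38 ± 0.21 (SD, n = 3). Replicate 3 had one more summit, 536 bp after the TSS, with a fold enrichment of 4.44. The merged peak (chr8:37962693-37963324, 632 bp) covered the TSS.

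KMT2D, which monomethylates H3K4 at enhancers, carried HA directly over its TSS (chr12:49454577, minus strand). The fold enrichment was 3.90, 5.97 and 6.12 in replicates 1, 2 and 3, and its mean of 5.33 ± 1.24 (SD, n = 3) exceeded 36.6% of the genes with a peak in every replicate. Replicate 1 was the low one, and its q-value of 0.000196 still passed the threshold of 0.05. The highest summits lay 47 bp upstream, 44 bp downstream and 93 bp downstream of the TSS, with 66, 81 and 53 fragments. Replicates 2 and 3 each had a lower second summit, 668 bp and 190 bp upstream, with a fold enrichment of 3.81 and 3.22. The merged peak was chr12:49454386-49455006 (621 bp).

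At SETD1B, which trimethylates H3K4 at active promoters, every HA summit lay upstream of the TSS (chr12:122241915, plus strand). The fold enrichment of the highest summit in the window was 4.85, 6.22 and 5.25, a mean of 5.44 ± 0.70 (SD, n = 3), above 39.2% of the genes with a peak in every replicate. That summit lay 872, 883 and 858 bp upstream, with 43, 49 and 41 fragments, so its place hardly moved between replicates. Replicates 2 and 3 had a further summit 337 and 344 bp upstream. The peak of replicate 3 reached past the window, and its highest summit, 1211 bp upstream, had a fold enrichment of 8.25.

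These summits stood closer to the TSS of another gene. RHOF, which is read in the opposite direction, starts 606 bp upstream of SETD1B, and the 872, 883 and 858 bp summits were 266, 277 and 252 bp into RHOF. The summits of replicates 2 and 3 at 337 and 344 bp lay 269 and 262 bp before RHOF, between both start sites. The merged peak (chr12:122238091-122241634) was 3544 bp long and ended 281 bp before the SETD1B TSS. Neighbouring narrow and broad calls were joined in the merged list, which lengthens its regions. Of all protein coding genes, 17.5% had another protein coding TSS within 1 kb, and of the 10 genes SETD1B and KDM5A did.

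The order of the 3 genes was compared within each replicate, in 2 pairs of neighbours. ASH2L exceeded SETD1B by 0.687, 0.663 and 0.759 in log2 fold enrichment in replicates 1, 2 and 3, averaging 0.70 ± 0.050 (SD, n = 3), and was higher in 3 of 3 replicates (exact permutation of the sign, two-sided, p = 0.25, adjusted p = 0.5). SETD1B exceeded KMT2D by 0.314 and 0.059 in replicates 1 and 2 and differed from it by -0.221 in replicate 3, a mean of 0.051 ± 0.27 (SD, n = 3; exact permutation p = 0.75, adjusted p = 0.75). With 3 replicates the smallest p is 0.25, so neither pair could pass 0.05. The gap between ASH2L and SETD1B was larger than its spread over replicates, and that between SETD1B and KMT2D was not. The order was taken from these same values, so they are no independent support for it. The gap also holds only for summits within 1 kb. Past the window, the replicate 3 peak of SETD1B reached 8.25, against 8.89 at ASH2L in that replicate. SETD1B and KMT2D changed places without replicate 1, where the mean difference was -0.08, and when ranked by fragments (-0.57) or by the −log10 q-value (-0.37).

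**Figure D2:**
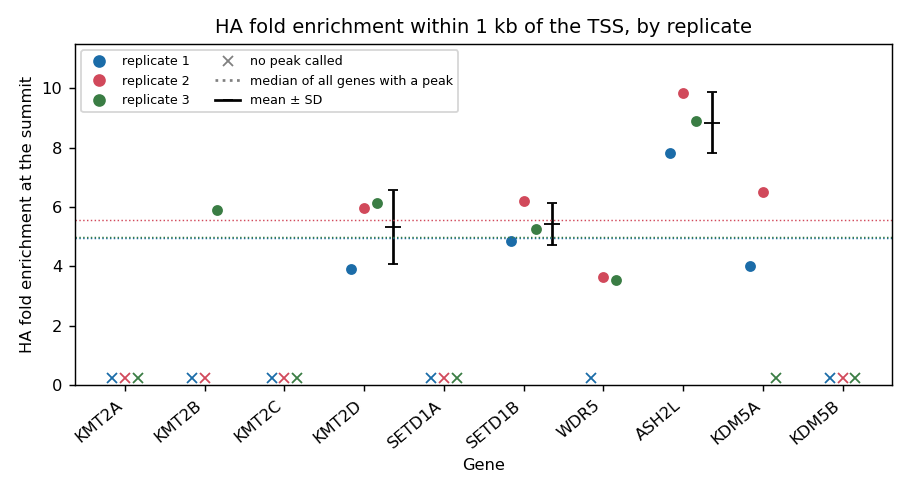
HA fold enrichment at the highest summit within 1 kb of the TSS (linear scale) for each gene and replicate, with the mean ± SD (n = 3) where every replicate had a peak, crosses where none was called, and dotted lines at the replicate medians of all genes with a peak. ASH2L, from 7.81 to 9.85, lies above the other genes, and WDR5, at 3.63 and 3.56, lies lowest.

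WDR5, KDM5A and KMT2B were called in some replicates only. WDR5, the core subunit that docks SET domain enzymes onto the complex, had a fold enrichment of 3.63 in replicate 2 and 3.56 in replicate 3 and no peak in replicate 1. Its summits lay 142 and 101 bp downstream of the TSS (chr9:137000487, plus strand) on 38 and 29 fragments. The q-values were 0.00281 and 0.0457, so the peak of replicate 3 stood just inside the threshold. The merged peak (chr9:137000535-137000728) was 194 bp long and lay wholly downstream of the gene start, while the canonical transcript starts 717 bp downstream of it.

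KDM5A had a fold enrichment of 4.03 in replicate 1 and 6.50 in replicate 2, with no peak in replicate 3. KDM5A (chr12:498486, minus strand) overlaps head to head with CCDC77, whose TSS lies 47 bp inside KDM5A, so that the 5′ ends of both genes share this stretch. The summits were 61 bp upstream and 46 bp downstream of the KDM5A TSS, with 42 and 58 fragments, and 108 bp and 1 bp downstream of the CCDC77 TSS. HA at KDM5A and at CCDC77 cannot be told apart here. The merged peak (chr12:498233-498675, 443 bp) was centred in the 5′ untranslated exon 1 of KDM5A.

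KMT2B, a methyltransferase of CpG-rich promoters, was called in replicate 3 only, with a fold enrichment of 5.89 on 50 fragments (37.1 to 65.9). This summit lay 601 bp upstream of the TSS (chr19:36208875, plus strand). Its value was above the replicate 3 median of 4.99 over all genes with a peak in that replicate. The gene was thus absent from 2 lists but not near the threshold in the other (q = 3.1e-07). The merged peak was chr19:36208078-36208365 (288 bp), upstream of the gene and within H3K4me3 of both lines.

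Where HA lay relative to the TSS was counted over all summits in the window. For the 6 genes with summits, 1 of 5 summits (20.0%, 95% exact binomial interval 0.505 to 71.6%) lay downstream of the TSS in replicate 1, 4 of 8 (50.0%, 15.7 to 84.3%) in replicate 2 and 4 of 9 (44.4%, 13.7 to 78.8%) in replicate 3. Over all protein coding genes the shares were 62.0%, 61.5% and 62.4%, which all lie within the intervals. Of the upstream summits, 5 were at SETD1B. Without summits nearer to another protein coding TSS, 8 of 16 (50.0%) were downstream, and when each gene was counted by its highest summit alone the share was 57.1%. Measured from the TSS of the canonical transcript it was 31.8%, and from that of any protein coding transcript 27.3%, both below the 40.9% of the gene starts. The shares over all genes were counted from gene starts over all summits. For these alternatives no matching share over all genes is given, so they are not set against it. Summits of 1 promoter are not independent of each other.

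The 4 genes without HA at the TSS were examined for the nearest HA peak. KDM5B, a demethylase of trimethylated H3K4, had no peak within 1 kb of its TSS (chr1:202777615, minus strand), but a merged peak stood 2448 bp upstream at chr1:202780063-202780378. This peak was called in every replicate, with a fold enrichment of 6.55, 9.90 and 5.69 (mean 7.38 ± 2.22, SD, n = 3). It was centred 242 bp downstream of the TSS of PCAT6, a lncRNA read away from KDM5B, and the summits lay 198, 223 and 211 bp into PCAT6. H3K4me3 covered that peak in both lines, over 812 bp in ProMMP2-3xHA cells and 1069 bp in WT cells. Of the divergent start sites of KDM5B and PCAT6, which are 2363 bp apart and which both carried H3K4me3, the lncRNA alone had HA within 1 kb.

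SETD1A, the paralog of SETD1B, was 7278 bp from the nearest merged HA peak (chr16:30959960-30961337). That peak lay at ORAI3, a subunit of calcium channels, with a fold enrichment of 8.65, 13.4 and 6.05. KMT2A was 35133 bp from its nearest merged peak (chr11:118271819-118272038), which lay at ATP5MG and was called in replicates 2 and 3 with 5.26 and 4.78. For KMT2C the distance was 2057583 bp, to a 230 bp peak (chr7:150075917-150076146) called in replicate 2 with 6.69. KMT2D had a second merged peak, at its 3′ end, 41657 to 42285 bp from its TSS (chr12:49412292-49412920). This peak lay over the TSS of PRKAG1, a regulatory subunit of AMP-activated kinase, and its fold enrichment of 9.46, 11.0 and 7.75 (mean 9.41 ± 1.64, SD, n = 3) was above the 3.90, 5.97 and 6.12 at the start of KMT2D in every replicate.

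Around KMT2C the lists held no HA peak. In the 2 Mb either side of its TSS (chr7:152133729), 0 of 14 H3K4me3 regions of ProMMP2-3xHA cells and 0 of 25 regions of WT cells had a merged HA peak within 1 kb. Taking 3 regions as the upper limit for a count of 0 gives shares of up to 21.4% and 12%. This rule treats neighbouring regions as independent, which they may not be, so the limits are rough and are no test. Over all H3K4me3 regions the shares were 32.5% and 36.9%. The nearest peak of replicate 1 was 6364174 bp away, that of replicate 2 2057550 bp and that of replicate 3 2955449 bp. Whether the lists used here are complete over this stretch cannot be told from them, so these values describe the lists and are not read as an absence of HA. Around KMT2A the shares were 16.3% and 16.7%, and around the other 8 genes they ranged from 30.2% to 57.5% for ProMMP2-3xHA and from 31.8% to 50.0% for WT regions. Of the 31-base words within 1 kb of the KMT2C TSS, 26.4% occurred elsewhere in the reference (at most 2 copies), against at most 0.609% at the other 9 genes. Reads from such words can fail a filter on mapping quality, and the part of this in the missing peaks was not tested.

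**Figure D3:**
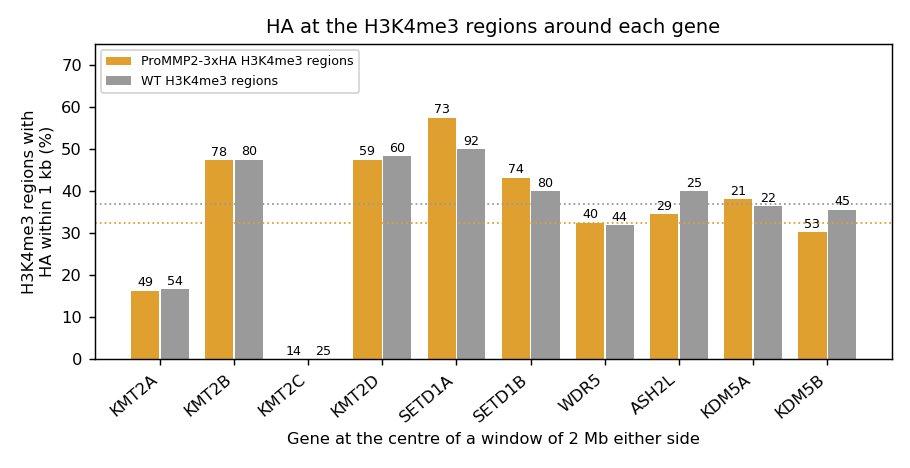
Share of H3K4me3 regions (percent) with a merged HA peak within 1 kb, among regions within 2 Mb either side of each gene, for the ProMMP2-3xHA (orange) and WT (grey) lists, with the number of regions above each bar and dotted lines at the shares over all regions. The window of KMT2C has 14 and 25 regions and none with HA, and that of SETD1A has the highest shares, 57.5% and 50.0%.

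H3K4me3 marked the promoters of nearly all of these genes. A region lay within 1 kb of the TSS at 9 of the 10 genes in ProMMP2-3xHA cells (57.0% of all protein coding genes), at all 10 in WT cells (60.9%) and at 9 in both (56.8%). The exception was KMT2C, with a 2452 bp region in WT cells (chr7:152131578-152134029) and none in ProMMP2-3xHA cells, where the nearest was 26809 bp away. H3K4me3 in WT cells only was found at 4.11% of all genes. The stretch around KMT2C moved with it: the 2 Mb either side held 14 regions in ProMMP2-3xHA and 25 in WT cells, while over the genome the ProMMP2-3xHA list was the longer one, with 19068 regions against 17101. The part of this and of the repeated words in the missing region was not tested, and 1 library per line gives no replicate check.

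The regions were wide. Among the 9 genes with H3K4me3 in both lines, the median width was 2388 bp in ProMMP2-3xHA and 2861 bp in WT cells, compared to 1444.5 and 1886 bp over all 11446 such genes. All 9 were above the ProMMP2-3xHA median and 8 were above the WT median, with KDM5B at 1810 bp just below it. SETD1B had the widest, 6304 bp in ProMMP2-3xHA and 7192 bp in WT cells, each wider than at 99.8% of genes with a region in that line. That region spanned the start sites of both SETD1B and RHOF. KMT2D followed in both lines with 2971 and 4384 bp. The third widest was KMT2B in ProMMP2-3xHA cells (2709 bp) and KMT2A in WT cells (3883 bp). The narrowest in ProMMP2-3xHA cells were KDM5B (1603 bp), WDR5 (1670 bp) and SETD1A (1805 bp).

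In every one of the 9 genes the region was narrower in ProMMP2-3xHA than in WT cells, as it was at 93.2% of all genes with H3K4me3 in both lines. The median ratio of widths of the 9 genes, ProMMP2-3xHA over WT, was 0.81 (n = 9), and over all genes it was 0.783. Genes with H3K4me3 in both lines and a merged HA peak had a median ratio of 0.812, and those without had 0.750. Of the 9 genes, the 6 with HA had a median of 0.841 and the 3 without had 0.81. No test between the lines was possible with 1 library each.

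The genes differed in how much narrower they were and on which side. KMT2A had 3883 bp in WT and 2302 bp in ProMMP2-3xHA cells, a ratio of 0.593, and was shorter by 774 bp upstream and 807 bp downstream. KMT2D (ratio 0.678) was shorter by 1251 bp inside the gene and by 162 bp upstream. WDR5 (0.669) was shorter by 510 bp downstream and 316 bp upstream. SETD1A had 1805 and 2229 bp, a ratio of 0.81, and KMT2B had a ratio of 0.805. At the other end KDM5A differed by 75 bp in 2463 bp (0.970), and ASH2L (0.905), KDM5B (0.886) and SETD1B (0.877) lay between. At SETD1B the region was 1313 bp shorter inside the gene but reached 425 bp further upstream, on the far side of the RHOF TSS, in ProMMP2-3xHA cells. At KDM5B the ProMMP2-3xHA region began 49 bp downstream of the TSS, whereas the WT region began 25 bp upstream of it.

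**Figure D4:**
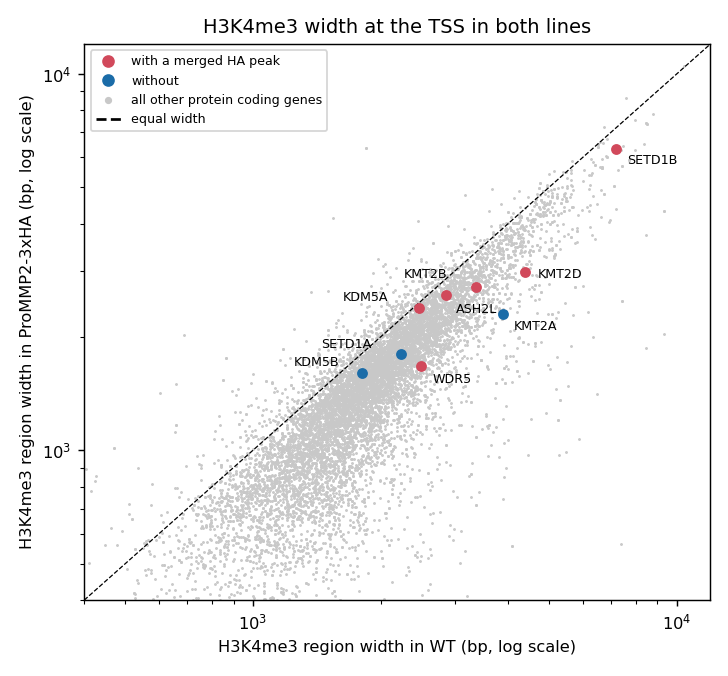
Width of the H3K4me3 region within 1 kb of the TSS in WT (x axis) and ProMMP2-3xHA cells (y axis), in bp on log scales, for all 11446 genes with a region in both lines (grey), of which those inside the axis limits are drawn, with 9 of the 10 genes coloured by whether a merged HA peak lay at the TSS and a dashed line at equal width. All 9 lie below the line, KDM5A nearest to it (0.970) and KMT2A farthest (0.593).

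The remaining genes of the pathway were counted for comparison. Of 22 other subunits, H3K4 methyltransferases and H3K4 demethylases, 8 had a merged HA peak (28.2% of all genes) and 5 had a peak in every replicate (16.1%). H3K4me3 in both lines was found at 19 (56.8%), all 19 narrower in ProMMP2-3xHA cells (median ratio 0.812). All 8 genes with a merged peak were among these 19. Over all genes with H3K4me3 in both lines, 49.0% had a merged peak and 28.0% a peak in every replicate. No test was made against these shares. The core subunits RBBP5 and DPY30 both had merged HA, so that all 4 core subunits did. By replicate they differed: ASH2L and DPY30 were called in every replicate, WDR5 and RBBP5 in 2 only. In the SETD1 complex it was 3 of 5, without BOD1 and CXXC1, the subunit that reads unmethylated CpG. None of the 3 subunits particular to the KMT2A and KMT2B complexes (MEN1, PSIP1 and HCFC2) had a merged peak, although each was called in 1 or 2 replicates.

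Among the 4 subunits of the KMT2C and KMT2D complexes only PAGR1 had a merged peak, with a fold enrichment of 8.09, 13.5 and 5.22 in replicates 1, 2 and 3. KDM6A was called in replicate 2 with 4.17 and had no merged peak. The H3K4me3 ratio of 0.475 at PAGR1 was below those of all 9 genes above. SMYD2 was the 1 of 5 other methyltransferases with HA (7.17, 7.70 and 5.00), and SMYD1, SETD7 and PRDM9 had no H3K4me3 in either line. Of 3 other demethylases, KDM5C had a merged peak and was called in replicate 2 with 4.37, while KDM1A had none but was called in replicates 2 and 3 with 4.68 and 4.42. In the 5 genes with a peak in every replicate, the mean fold enrichment was highest at DPY30 (9.61 ± 2.13, SD, n = 3), then PAGR1 (8.94 ± 4.21), HCFC1 (6.72 ± 3.04), SMYD2 (6.62 ± 1.43) and WDR82 (3.90 ± 0.76). The values of DPY30 were 7.17, 10.6 and 11.1, which overlap those of its partner ASH2L.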

How the data were processed

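HA and H3K4me3 native ChIP-Seq peak lists of U2OS cells were used. By the submitters' processing notes and the study's methods, the authors trimmed reads (Trim Galore 0.6.0), aligned them to GRCh37 (Bowtie2 2.3.5.1), filtered them on mapping quality (SAMtools 1.9), removed duplicates (Picard) and called peaks with MACS2 3.0.0a6. The deposited HA lists of single replicates hold, for each summit, a score, the fold enrichment over an HA control immunoprecipitation as a ratio, and the −log10 of its p-value and q-value. The merged HA list, called by the authors on pooled replicates, and the H3K4me3 lists hold joined narrow and broad intervals without a score.

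Protein coding genes were those of GENCODE version 44 on GRCh37. Regions within 1 kb of the TSS were counted with Python 3.11.15, numpy 2.4.6, scipy 1.17.1 and pandas 2.3.3. Every interval on a named chromosome or contig lay inside the GRCh37 sequence, and bedtools 2.31.1 found the same genes within the window. Of several summits in a window, the highest gave the fold enrichment. Fragments at a summit were recovered from the fold enrichment and the p-value for 95.6%, 99.7% and 98.7% of summits. Intervals cover counting error only. The recovery was tested on data simulated with the same formulas, which cannot show that the deposited values follow them. Titles gave the groups. Replicates were independent experiments on 1 stable line.

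All 10 genes were named. Of the other pathway genes, those with the rarer merged HA call of their complex and the 3 highest and 3 lowest by mean fold enrichment were named. The genes and lists were chosen with earlier results of these data known. Alternatives were other windows, start sites, thresholds, summits and left-out replicates.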

Additional observations from a re-analysis of the deposited data

How the results depend on the processing

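The 8 results were recomputed in 61 comparisons with an alternative setting, of which 57 were planned and 4 were chosen after seeing the data. A count was taken as unchanged within 1.5 times, a difference between genes while it kept its sign and its side of the test's threshold, and any other value within 1 SD over replicates or genes. By these rules 52 comparisons were unchanged, 5 moved, and 4 changed sign or, for the share of summits, crossed to the other side of equal shares. ASH2L over SETD1B kept its sign throughout, with 1.55 by the −log10 q-value against 0.70, but none of its alternatives changed the window. The 6 genes with a merged HA peak became 3 when the peak had to overlap a peak of every replicate, and 3 when it had to cover the TSS base. The shares of all genes under these stricter rules are not given, so whether all genes fall alike cannot be told. The median fold enrichment of 5.44 was 7.09 with a window of 500 bp, where SETD1B dropped out, 6.44 with a window of 2 kb, and 6.44 when the highest summit of the peak was used also outside the window. The share of summits downstream of the TSS, 40.9%, was 57.1% with 1 summit for each gene and replicate. The log2 difference of SETD1B over KMT2D, 0.051, was -0.57 by fragments and -0.37 by the −log10 q-value, and without 1 replicate it ranged from -0.0814 to 0.187. The cause of these changes was not tested. The median width ratio of 0.81 was the same under all 6 of its alternatives. The genes with H3K4me3 in both lines had 1 region per line in the window. Settings such as the sum of widths could therefore not change the ratio, and its sameness is no support. No paired analysis was possible because the groups share no more than 1 replicate number. The peaks of WDR5 rest on 38 and 29 fragments, and the part of depth in the HA calls was not tested. For H3K4me3 no fragment numbers are known.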

Other observations

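Inside the 10 genes, H3K4me3 regions away from both gene ends were few. SETD1B carried one at chr12:122249495-122250685, 7580 to 8770 bp into the gene, that was 1191 bp wide in WT cells and 152 bp wide (chr12:122250290-122250441) in ProMMP2-3xHA cells. ASH2L carried a 159 bp region in ProMMP2-3xHA cells (chr8:37979439-37979597), 16428 bp into the gene, with none in WT cells. No HA peak of any list lay at either of them. Each rests on 1 library per line.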
